A study of Homo sapiens with 4 samples.

Results

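CISH and the suppressors of cytokine signaling SOCS1 to SOCS7 form a family of 8 genes that limit signaling downstream of cytokine receptors. All 8 were taken by gene symbol from the deposited table of 20323 genes, in which each member has 1 Ensembl identifier, and 6 of them had enough reads to be tested among 11810 genes. RNA came from NK-92, a human natural killer (NK) cell line that depends on interleukin 2 (IL-2). NK scramble cells carried a lentiviral scrambled hairpin and NK shADAR1 cells a lentiviral hairpin against ADAR1, the RNA editing enzyme encoded by ADAR. Each group had 2 libraries, which the submitters describe as independent biological replicates. Cells of both groups were transduced and grown with 100 IU/ml of recombinant human IL-2, so every value below was measured with IL-2 in the medium and none without it. The study's text names the sequenced knockdown cells NK shADAR1-2 after 1 of its hairpins, whereas the labels call the 2 libraries shADAR1-1 and shADAR1-2, which are also the study's names for its 2 hairpins. The numbers were read as replicates, in keeping with the series' description, but the libraries could instead carry different hairpins, and the spread between them and the values without either of them would then also hold a difference between hairpins.

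Each protein of the family joins an SH2 domain, which binds phosphorylated tyrosines, to a SOCS box at its end, which recruits elongins B and C and the scaffold cullin 5 into an E3 ubiquitin ligase. Binding of IL-2 or IL-15 to the receptor chains IL2RB and IL2RG activates the kinases JAK1 and JAK3, these phosphorylate STAT5, and STAT5 in turn switches on CISH, SOCS2 and SOCS1 among its targets, which closes a negative feedback loop. CISH is known as an intracellular checkpoint of NK cells, SOCS1 and SOCS3 can block JAK kinases directly, SOCS2 is best known as a brake on growth hormone signaling, and SOCS4 to SOCS7 are studied less and act mainly on growth factor receptors and their adapters. The comparison of NK shADAR1 with NK scramble cells asks whether the RNA levels of these brakes moved with the ADAR1 hairpin. The study names CISH for its direction in these same libraries, and lists CISH and SOCS2 in its set of NK inhibitory genes, so the direction of CISH is not independent evidence.

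Activated STAT5 binds DNA at a palindromic element, and the promoter window of CISH held 4 matches to its letters. The motif searched was TTCNNNGAA, where N is any base. It reads the same on both strands, so a search of 1 strand covers both. RefSeq promoter windows (GRCh38.p14, 250 bases before to 50 bases after the annotated transcription start) were at hand for 5 of the 8 members, CISH, SOCS1, SOCS3, SOCS4 and SOCS6. The 4 matches of CISH lay in pairs, written here as read on the minus strand of chromosome 3. They are shown because CISH was the member with the largest difference between the groups, with capitals marking the motif.
CISH, distal pair, chr3:50611995-50612016: tTTCCTGGAAagTTCTTGGAAa
CISH, proximal pair, chr3:50611877-50611904: gTTCTAGGAAgacgctgcTTCCGGGAAg
The 2 motifs of the distal pair began 241 and 230 bases before the start and lay 2 bases apart. Those of the proximal pair began 129 and 112 bases before it and lay 8 bases apart. In GENCODE release 29 (GRCh38), CISH spans chr3:50606490-50611831, so both pairs lie upstream of the annotated gene. Both pairs overlap MAPKAPK3, a gene on the opposite strand. The distal pair overlaps an exon of it, and the proximal pair lies outside its exons. Of 35116 windows of 300 bases, 7.66% held at least 1 match, 0.456% at least 2 and 0.0199% (7 windows of 6 genes) at least 4. SOCS1, SOCS4, SOCS6 and both windows of SOCS3 held 0 matches, which says only that these letters are not within these windows.

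**Figure D1:**
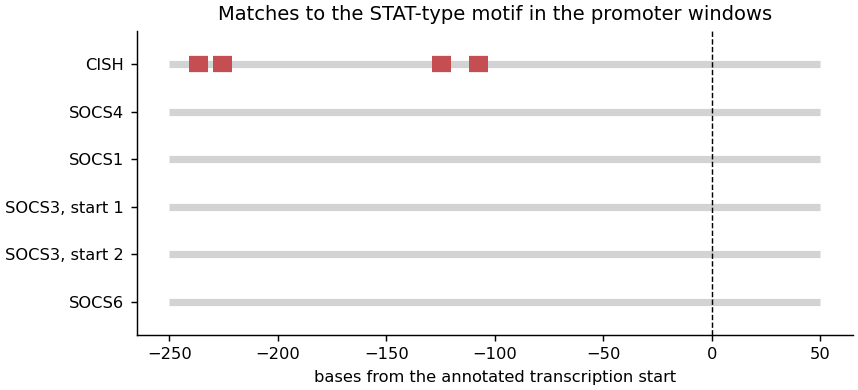
Matches to TTCNNNGAA (red blocks) in the RefSeq promoter windows of 5 members (grey bars), with the distance in bases from the annotated transcription start (dashed line) on the horizontal axis and 2 windows for SOCS3, which has 2 annotated starts. CISH holds 4 matches in 2 pairs and the other windows hold 0.

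The libraries held 37881704 to 39960491 estimated counts, so depth differed little between the groups. The CPM values below are the rounded counts scaled to a common depth with edgeR's TMM library sizes, and values of a group are given for replicate 1 and then replicate 2, with NK scramble cells as the controls and NK shADAR1 cells as the knockdown. ADAR, the targeted gene, had 655 and 682 CPM in the controls against 575 and 482 CPM after knockdown, for a log2 fold change of -0.34 with a 95% interval from -0.79 to 0.11. The knockdown seen in the RNA of these libraries was therefore shallow and did not pass edgeR's test (adjusted p = 1.00). By quantitative PCR of RNA and by western blot of protein, the study reports that its hairpins lowered ADAR1 in NK-92 cells. Protein was not measured in these libraries. All 16 NK markers were detected, with a summed level of 5226 to 6306 FPKM (fragment counts scaled by transcript length and by sequencing depth) in NK scramble and 5910 to 6066 FPKM in NK shADAR1 libraries. T cell markers summed to 49.3 to 62.5 FPKM and 57.3 to 71.0 FPKM, carried by CD28 and CD6 and with CD8A and CD8B at 0 in every library. B cell markers summed to at most 7.80 FPKM and myeloid markers to at most 5.26 FPKM in any library. In bulk RNA, a smaller number of cells that express a gene and less of its RNA in each cell cannot be told apart.

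CISH and SOCS2 supplied most of the family's RNA. Levels of different genes are compared in FPKM, which divides by transcript length. CISH had 101 and 73.3 FPKM in NK scramble replicates 1 and 2 and 43.7 and 61.4 FPKM in NK shADAR1 replicates 1 and 2. SOCS2 had 43.0 and 41.5 FPKM in NK scramble and 29.3 and 37.98 FPKM in NK shADAR1 libraries. Within each library CISH was the more abundant of the pair, by 1.49-fold to 2.36-fold, although the lowest CISH value and the highest SOCS2 value lay close together. Together they made up 86.6% and 86.0% of the summed FPKM of the 8 genes in NK scramble libraries and 79.6% and 82.2% in NK shADAR1 libraries. By its mean of 69.9 FPKM, CISH was more abundant than 89.0% of tested genes, and SOCS2, with a mean of 37.9 FPKM, than 78.9%.

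SOCS7 and SOCS4, which act mainly outside the cytokine feedback loop, followed with means of 9.02 and 8.04 FPKM. The order of these neighbours was not settled, since SOCS7 ranged from 6.08 to 10.9 FPKM over the 4 libraries and SOCS4 from 7.33 to 8.85 FPKM. SOCS5 came next with 1.85 to 2.45 FPKM, above SOCS1 with 0.463 to 1.80 FPKM. SOCS1, a strong inhibitor of JAK1 and JAK2, thus had a low RNA level in these cells with IL-2 in the medium.

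SOCS3 and SOCS6 were close to silent. SOCS3, a main brake on IL-6 signaling, had 1 and 0 counts in NK scramble replicates 1 and 2. It had 2 and 0 counts in NK shADAR1 replicates 1 and 2. SOCS6, an adapter that targets the receptor tyrosine kinase KIT among others, had 1 count in NK scramble replicate 1 and 0 in the other 3 libraries. A count of 0 in a library allows up to 3 counts, as a one-sided limit that covers counting error only. Both genes were removed by the count filter, no fold change is given for either, and at this depth no difference between the groups was detectable. SOCS3 and SOCS6 lie at chr17:78356778-78360077 and chr18:70288901-70330200 in GRCh38, and GENCODE release 29 lists no other gene overlapping them.

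**Figure D2:**
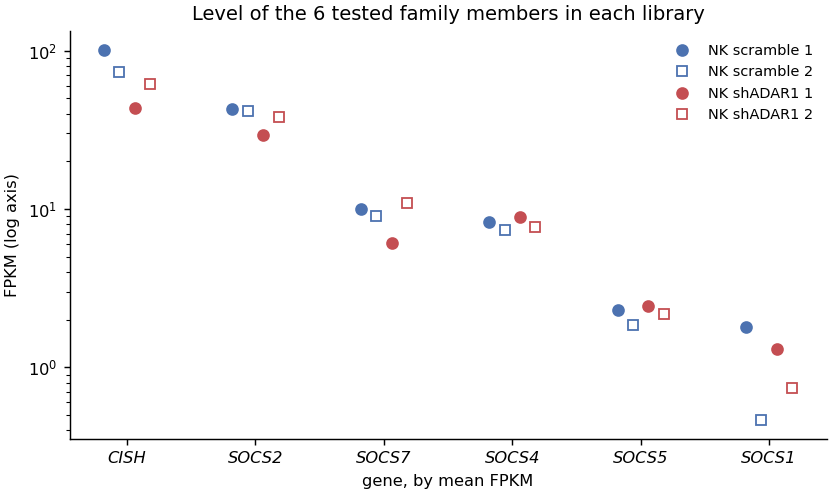
FPKM of the 6 tested members in each of the 4 libraries on a log axis, ordered by mean, with NK scramble in blue, NK shADAR1 in red, filled circles for replicate 1 and open squares for replicate 2. CISH and SOCS2 stand at 29.3 FPKM or more in every library, SOCS7 and SOCS4 overlap, and SOCS1 spreads widely.

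CISH showed the largest difference of the family. It had 203 and 151 CPM in the controls against 85.1 and 128 CPM after knockdown. Both NK shADAR1 libraries lay below both NK scramble libraries, but the nearest values of the groups, NK scramble replicate 2 and NK shADAR1 replicate 2, were only 1.17-fold apart, less than the 1.35-fold and 1.51-fold between the replicates of each group. The mean was 177 ± 36.9 CPM in NK scramble and 107 ± 30.5 CPM in NK shADAR1 cells (SD, n = 2 per group). The log2 fold change was -0.73 (standard error 0.25, 95% interval -1.28 to -0.18), which is 0.604 times the NK scramble level with an interval of 0.413 to 0.883 times. Its unadjusted p was 0.0143 in edgeR and 0.00518 in DESeq2, and after adjustment over all tested genes it was 1.00 in both. The size rested partly on single libraries, with -0.46 without NK shADAR1 replicate 1 and -1.06 without NK shADAR1 replicate 2, although the sign was negative each time. Of the 5112 exonic bases of CISH, 218 are shared with exons of MAPKAPK3 on the opposite strand, and the kit is not described as marking strand. MAPKAPK3 itself, which encodes a stress-activated kinase, had overlapping groups with 194 and 157 CPM in the controls against 142 and 179 CPM after knockdown.

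SOCS2 pointed the same way with a smaller difference. It had 67.3 and 64.7 CPM in the controls, which were nearly equal, against 41.4 and 57.9 CPM after knockdown. The groups did not overlap, and the gap between their nearest libraries was 1.12-fold. The log2 fold change was -0.41 (standard error 0.22), and its 95% interval from -0.90 to 0.074 includes no difference (unadjusted p = 0.0886, adjusted p = 1.00). Most of it came from NK shADAR1 replicate 1, since the value was -0.19 without that library and -0.68 without NK shADAR1 replicate 2. CISH and SOCS2 thus shared their lowest library, NK shADAR1 replicate 1, while ADAR itself was lowest in NK shADAR1 replicate 2. In GRCh38, SOCS2 lies at chr12:93569814-93583487 on the plus strand and shares 277 of its 6776 exonic bases with the antisense gene SOCS2-AS1, which was not analysed here.

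SOCS1 varied more within a group than between groups. It had 2.25 and 0.636 CPM in the controls against 1.63 and 1.02 CPM after knockdown. These values stand for 90, 25, 64 and 38 counts, and the two-sided exact Poisson 95% intervals of the NK scramble libraries, 72.4 to 111 and 16.2 to 36.9 counts, do not meet, so the 3.54-fold spread between control replicates exceeded counting error. The log2 fold change was -0.13 with a wide 95% interval from -1.47 to 1.22, and its sign turned to 1.05 without NK scramble replicate 1 and to 0.17 without NK shADAR1 replicate 2. SOCS1 (chr16:11254405-11256200, minus strand) lies inside RMI2, a gene on the opposite strand, but shares 0 exonic bases with it.

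SOCS4, SOCS5 and SOCS7, which are known mainly for restraining growth factor receptors and, for SOCS7, insulin signaling and nuclear transport of adapters, had overlapping groups. SOCS4 varied little, with 55.7 and 50.8 CPM in the controls against 58.0 and 54.3 CPM after knockdown, for a log2 fold change of 0.076 (95% interval -0.35 to 0.51). SOCS5 had 10.9 and 8.81 CPM in the controls against 11.2 and 10.7 CPM after knockdown, for a log2 fold change of 0.16 (95% interval -0.38 to 0.69). Both intervals leave out a decrease as large as the fitted difference of CISH or SOCS2. SOCS7 had nearly equal values in NK scramble replicates, 54.6 and 54.9 CPM, and values on both sides of them in NK shADAR1 replicates 1 and 2, 36.4 and 62.2 CPM. Its log2 fold change was -0.15 (95% interval -0.72 to 0.41) and became 0.18 without NK shADAR1 replicate 1, the library in which CISH and SOCS2 were also lowest. In GRCh38 these genes lie at chr14:55027230-55049488 (SOCS4), chr2:46698952-46780245 (SOCS5) and chr17:38352228-38405593 (SOCS7), each on the plus strand. SOCS5 shares 160 of 7598 exonic bases with LINC01118, a non-coding gene on its own strand, and the other 2 overlap no annotated gene.

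**Figure D3:**
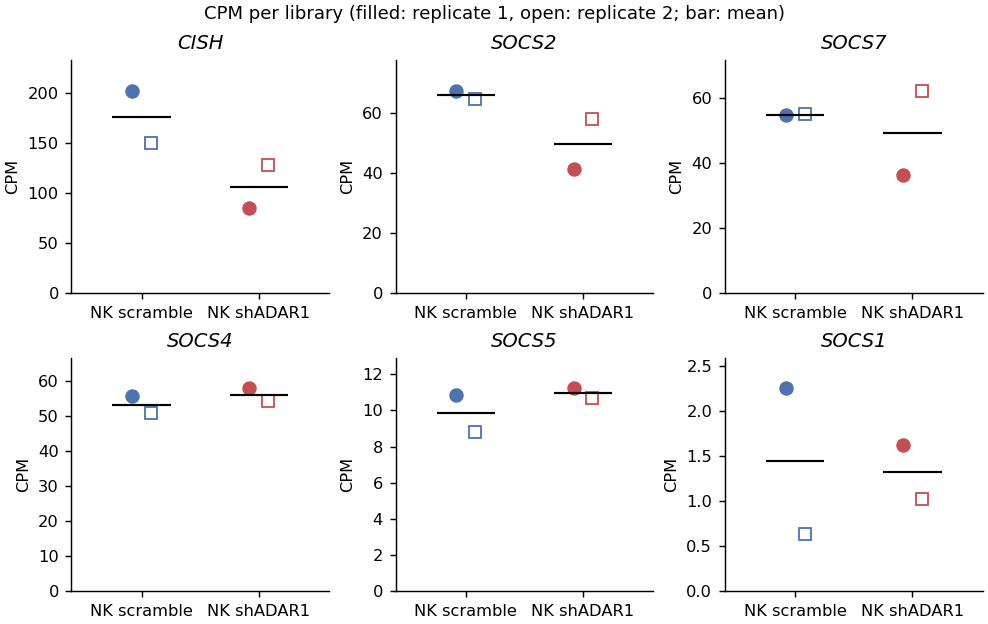
CPM of the 6 tested members in the 2 NK scramble (blue) and 2 NK shADAR1 libraries (red), with filled circles for replicate 1, open squares for replicate 2 and bars for group means, on axes that start at 0. The groups do not overlap for CISH and SOCS2 and overlap for the other 4.

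With the study's thresholds, a fold change of 1.5 or more with an adjusted p under 0.05, edgeR's quasi-likelihood test called 0 of the 6 tested members. Over all 11810 tested genes it also called 0 (0%), and DESeq2 called 0 of 15605 (0%) with 0 members among them. The study used DESeq2 and reports differentially expressed genes in these libraries at the same thresholds. That result was not reproduced here with adjusted p. DESeq2 gave 289 genes (1.85%) at an unadjusted p under 0.05, and edgeR 293. At an unadjusted p under 0.05 edgeR gave 1 member, CISH, beside 2.48% of all tested genes, with 0.779% lower and 1.7% higher in NK shADAR1 cells. With the fold threshold added, CISH still passed, beside 0.542% of tested genes lower and 1.26% higher. Groups without overlap, with NK shADAR1 lower, were found for 2 of the 6 members, CISH and SOCS2, and for 12.6% of all tested genes (26% in either direction). The median log2 fold change of the 6 members was -0.14, with 4 of them below 0 as were 50% of all tested genes.

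**Figure D4:**
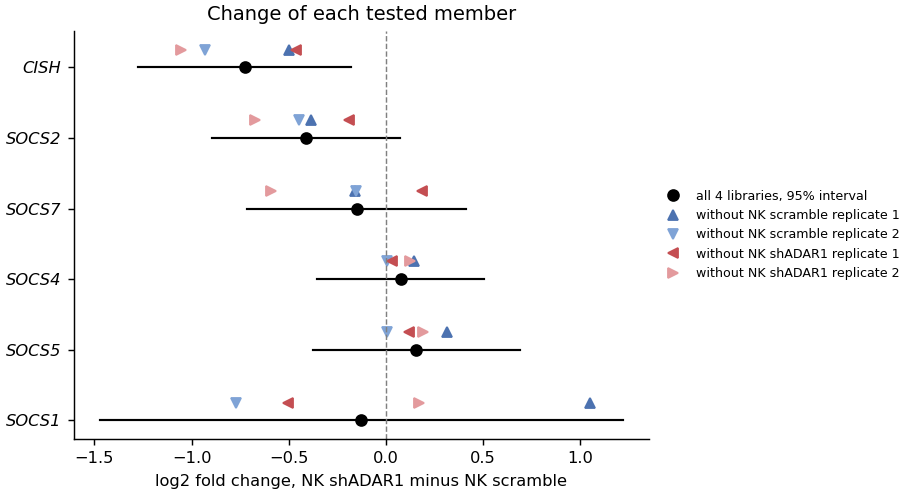
Log2 fold change of NK shADAR1 minus NK scramble cells for the 6 tested members, with all 4 libraries (black points, bars for the 95% interval of edgeR's fit) and with each library left out in turn (triangles). CISH is the 1 member whose interval lies below 0, and the triangles of SOCS1 and SOCS7 fall on both sides of 0.

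The receptor and kinase level above these inhibitors was next examined. The chains of the IL-2 receptor were abundant and had overlapping groups. IL2RB, the signaling chain shared by IL-2 and IL-15, had 1029 and 983 CPM in the controls against 1279 and 790 CPM after knockdown. The log2 fold changes of IL2RA and IL2RG were 0.088 (95% interval -0.41 to 0.58) and 0.069 (95% interval -0.40 to 0.53). Of the kinases, JAK1 had a log2 fold change of 0.068 and JAK3 of -0.0066, with intervals of -0.37 to 0.51 and -0.51 to 0.50. STAT5A and STAT5B, the factors that drive CISH, had log2 fold changes of -0.16 (95% interval -0.59 to 0.28) and -0.0056 (95% interval -0.44 to 0.43). RNA levels do not measure phosphorylation of these proteins.

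Across the list of 29 cytokine receptors, JAKs and STATs, 27 genes were tested, and 2 of them were lower in NK shADAR1 cells at an unadjusted p under 0.05 while 0 were higher, beside 0.779% and 1.7% of all tested genes. In 9 of the 27 both NK shADAR1 libraries lay below both controls and in 3 above, beside 12.6% and 13.3%. IL15RA, which presents IL-15 to neighbouring cells, was among the 2. IL15RA had 45.1 and 28.5 CPM in the controls against 24.7 and 24.4 CPM after knockdown, for a log2 fold change of -0.58 (unadjusted p = 0.0377) that was -0.21 without NK scramble replicate 1. The median of the 27 genes was -0.050 on the log2 scale, against 2.76e-05 for all tested genes. None of the 27 passed after adjustment in edgeR or DESeq2.

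Genes known as STAT5 targets in lymphocytes, other than the family itself, were mostly lower. Of the 18 tested of 20 listed, 15 had a log2 fold change below 0, beside 50% of all tested genes, and the median was -0.26. In 7 of the 18 both NK shADAR1 libraries lay below both NK scramble libraries, beside 12.6% of all tested genes, and in 1 they lay above, beside 13.3%. At an unadjusted p under 0.05 in edgeR, 2 were lower and 1 was higher, beside 0.779% and 1.7% of all tested genes. After adjustment 0 passed in edgeR or DESeq2. LTA, which encodes lymphotoxin alpha, had 78.9 and 59.4 CPM in the controls against 14.7 and 41.9 CPM after knockdown. Its log2 fold change was -1.29, and -0.72 without NK shADAR1 replicate 1. The unadjusted p of LTA was 0.00787 in edgeR but 0.0749 in DESeq2. IFNG, which encodes interferon gamma, had 32.3 and 60.0 CPM in the controls against 19.7 and 22.5 CPM after knockdown, for a log2 fold change of -1.13 that was -0.62 without NK scramble replicate 2. IFNG and LTA also answer to other signals than STAT5. The cytotoxic genes GZMB and PRF1 of the same list, chosen after their values were seen, had log2 fold changes of -0.0075 and -0.036.

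The 1 STAT5 target that was higher at an unadjusted p under 0.05 was BCL6, which encodes a transcriptional repressor and which, unlike CISH, is known to be repressed by STAT5. BCL6 had 13.4 and 16.0 CPM in the controls against 30.0 and 19.1 CPM after knockdown, for a log2 fold change of 0.74 (standard error 0.26, unadjusted p = 0.0156, adjusted p = 1.00) that was 0.38 without NK shADAR1 replicate 1. Its promoter window was another of the 7 with at least 4 matches to TTCNNNGAA, and 2 of its matches form a pair spaced by 6 bases, shown here for comparison with the pairs of CISH printed above.
BCL6, pair at the start site, chr3:187745449-187745474, minus strand: aTTCTTAGAActggggTTCTTAGAAg
In GENCODE release 29 this stretch overlaps an exon of BCL6 and an exon of AC072022.2 on the opposite strand. Among all genes with at least 2 matches in a window, the 45 that were tested had a median log2 fold change of 0.061. In 5 of the 45 (11.1%) NK shADAR1 cells were lower without overlap of the groups and in 4 higher, beside 12.6% and 13.3% of all tested genes. Whether these shares differ was not tested.

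Other inhibitors of cytokine signaling did not move in 1 direction. Of 13 listed genes, 12 were tested and 3 had an unadjusted p under 0.05. Of these, 1 was lower and 2 were higher in NK shADAR1 cells, beside 0.779% lower and 1.7% higher of all tested genes. In 4 of the 12 both NK shADAR1 libraries lay above both controls and in 1 below, beside 13.3% and 12.6% of all tested genes. USP18, which blocks signaling at the type I interferon receptor, had 37.5 and 39.3 CPM in the controls against 21.6 and 15.5 CPM after knockdown, for a log2 fold change of -1.05 (unadjusted p = 0.000838). The phosphatases PTPRC (CD45) and PTPN6 (SHP-1), which remove phosphate from JAKs or Src-family kinases, were higher in both NK shADAR1 libraries than in either control. PTPRC had 582 and 503 CPM in the controls against 945 and 750 CPM after knockdown, for a log2 fold change of 0.64. PTPN6 had 16.2 and 26.2 CPM in the controls against 31.3 and 35.5 CPM after knockdown, for a log2 fold change of 0.66 that was 0.35 without NK scramble replicate 1. None of the 3 passed after adjustment in edgeR or DESeq2. The remaining 9 genes, among them the PIAS inhibitors of STATs and the ubiquitin ligases CBL and CBLB, had unadjusted p-values of 0.172 or more, and the list's median was -0.011. PTPN6 and PTPRC are among the genes that the study names for these libraries, so their direction is not independent evidence.

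The ubiquitin ligase through which the SOCS box acts was examined next. All 10 listed genes were tested, from elongins B and C (ELOB and ELOC) and the cullins CUL5 and CUL2 to the ring finger proteins RNF7 and RBX1 and the NEDD8 enzymes. At an unadjusted p under 0.05 in edgeR there were 0 of the 10, beside 2.48% of all tested genes. In 3 of the 10 both NK shADAR1 libraries lay below both controls and in 1 above, beside 12.6% and 13.3% of all tested genes. Their log2 fold changes lay between -0.26 and 0.28, with a median of -0.010. Of 27 other genes with a SOCS box, the SPSB, ASB, WSB and RAB40 families, 14 were tested and 7 were at 0 in every library. None of the 14 had an unadjusted p under 0.05, beside the same 2.48%, and their median was 0.047. In 2 of the 14 both NK shADAR1 libraries lay below both controls and in 3 above. ASB2, an ankyrin repeat member known from hematopoietic cells, had 70.2 to 89.2 CPM over the 4 libraries with overlapping groups and was chosen after its values were seen.

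Interferon-stimulated genes were mostly lower in NK shADAR1 cells and are given beside the family because SOCS1 is itself an interferon target. The study reports lower type I interferon target genes in these same libraries, so their direction is not independent evidence. All 22 listed genes were tested, and 20 had a log2 fold change below 0, beside 50% of all tested genes, with a median of -0.98. At an unadjusted p under 0.05 in edgeR, 9 were lower and 0 higher, beside 0.779% and 1.7% of all tested genes. After adjustment 0 passed in edgeR or DESeq2. IFI27, IFI6, OAS2 and IFIT1, which are antiviral effectors, had log2 fold changes of -1.31, -1.13, -1.10 and -1.29. IFIT1 was -0.76 without NK shADAR1 replicate 2 and -2.17 without NK shADAR1 replicate 1, and OAS2 was -0.72 without NK shADAR1 replicate 2. The list summed to 1687 to 1809 FPKM in NK scramble libraries and to 1232 and 747 FPKM in NK shADAR1 replicates 1 and 2. The library with the lowest interferon-stimulated level and the lowest ADAR level was thus NK shADAR1 replicate 2. CISH, SOCS2 and SOCS7 were instead lowest in NK shADAR1 replicate 1. The STAT5 targets that were lower without overlap of the groups were divided unevenly. PIM1, MYC, OSM, LTA and IFNG were lowest in NK shADAR1 replicate 1. PIM2 and DUSP5 were lowest in NK shADAR1 replicate 2. Of these genes, all but LTA and IFNG are named after their values were seen. SOCS1 was not lower in both NK shADAR1 libraries. The part of the interferon-stimulated genes in the differences of CISH and SOCS2 was not tested.

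The genes whose profiles were most like those of CISH and SOCS2 were found by the Euclidean distance between log2 CPM values centred over the 4 libraries, among the 9873 tested genes whose mean count was 100 or more. For CISH they were INSIG1, SAT1, PSAT1, HSPA8 and TMEM182, at distances of 0.129, 0.146, 0.170, 0.194 and 0.195. INSIG1, a regulator of sterol synthesis, had 613 and 428 CPM in the controls against 252 and 412 CPM after knockdown, and PSAT1, an enzyme of serine synthesis, had 184 and 120 CPM in the controls against 78.4 and 108 CPM after knockdown. For SOCS2 they were SNAPC1, LMAN2L, ODC1, SKA1 and NUDT4, at distances of 0.0221 to 0.0768, of which ODC1 makes polyamines and had 367 and 351 CPM in the controls against 225 and 331 CPM after knockdown. SOCS2 itself stood at rank 64 by likeness to CISH, at a distance of 0.413 where the median gene lay at 0.946. With 4 libraries such a likeness is a description of these libraries.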

How the data were processed

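RNA of NK-92 cells was sequenced from 2 NK scramble and 2 NK shADAR1 libraries, grouped by their sample labels. The authors deposited estimated counts per gene, of which 12.4% are not whole numbers, and FPKM values, which scale them by transcript length and mapped fragments. The submitters' processing notes name fastp 0.18.0. The aligner, counter and genome build are not given in the sources used here. Ensembl identifiers were paired with symbols for 20301 of 20323 genes.

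Estimated counts were rounded, filtered with filterByExpr (minimum count 10) and, after TMM scaling, compared in edgeR 4.0.16 (quasi-likelihood test, Benjamini-Hochberg adjustment over 11810 genes) in R 4.3.3, and the code was tested on simulated data. Called genes had a fold change of 1.5 or more with an adjusted p under 0.05. The biological coefficient of variation was 0.201. FPKM served for levels between genes. An exact permutation test of 2 against 2 libraries cannot go below p = 0.333 and was not used. Alternatives were DESeq2 1.42.0, other scalings and filters, a replicate block, limma 3.58.1 on log2 FPKM and leaving out each library. Chosen after seeing the data was DESeq2 with unadjusted p. Intervals and floors on counts cover counting error only. P-values and the intervals of fold changes rest on the spread between these libraries. The fits moderate each gene's spread with that of other genes. The p-value and interval of CISH therefore draw on more than its own spread.

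The members and gene lists were chosen with earlier results of these data known. Named in the text are all members, ADAR, 7 genes of the IL-2 pathway, the genes of each list with an unadjusted p under 0.05 (at most 4 by smallest p; 1 gene is not reported here), and the 5 genes most like CISH and SOCS2 each. Sequences are from RefSeq (GRCh38.p14), and gene positions from GENCODE release 29.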

Additional observations from a re-analysis of the deposited data

How the results depend on the processing

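CISH, SOCS2, SOCS4 and SOCS5 kept the sign of their log2 fold change under all 12 alternatives, and over 6 members and 12 alternatives 67 of 72 results kept sign and side of the threshold. The 5 others were changes of sign. SOCS1 became 0.049 with the replicate block and 0.072 in limma on log2(FPKM + 0.1), and ranged from -0.77 to 1.05 when 1 library was left out. SOCS7 ranged from -0.59 to 0.18, the positive value without NK shADAR1 replicate 1. The adjusted p of CISH ranged from 0.279 (replicate block) to 1.00 and that of SOCS2 from 0.780 to 1.00.

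Over all tested genes, 0 were called, against 13 with the replicate block, 213 with unadjusted p, 196 in DESeq2 with unadjusted p (an alternative chosen after seeing the data), and 1 to 47 when 1 library was left out (47 without NK scramble replicate 1, 2 without NK scramble replicate 2, 16 without NK shADAR1 replicate 1 and 1 without NK shADAR1 replicate 2). Without 1 library the lone sample of a group is assumed to vary like the other group. The number of genes that the study reports at adjusted p equals the number called here in DESeq2 with unadjusted p. Why these numbers are equal was not tested. Among the members, 1 (CISH) was called with unadjusted p in edgeR and 1 in DESeq2. With the replicate block, 1 of the other inhibitors, 1 STAT5 target and 8 interferon-stimulated genes were called. With unadjusted p the counts were 1 of the receptors and JAK-STAT genes, 3 of the other inhibitors, 3 STAT5 targets and 9 interferon-stimulated genes. Leaving out 1 library gave 0 to 1 of the other inhibitors (1 without NK scramble replicate 1), 0 to 2 STAT5 targets (2 without NK scramble replicate 1) and 0 to 13 interferon-stimulated genes (8 without NK scramble replicate 1 and 13 without NK shADAR1 replicate 1). The cause of these differences was not tested.

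Deviations of same-numbered libraries from their group means correlated at 0.358 across genes, but the labels give no shared batch and there are only 2 pairs, so the libraries share a number and the replicate block is an alternative. At 2 libraries per group the spread between replicates limits precision, and for SOCS1, SOCS3 and SOCS6 so does depth.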
